A study of Homo sapiens with 18 samples.

Results

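The integrin and laminin chains of A375 cells, an established human melanoma line, were described across 6 groups of RNA-seq libraries. The chains were taken by gene symbol alone: every protein-coding gene named as an integrin alpha, an integrin beta or a laminin alpha, beta or gamma chain, which gave 38 genes of the 58721 identifiers in the count table. They were 18 integrin alpha chains, 8 integrin beta chains, 5 laminin alpha chains, 4 laminin beta chains and 3 laminin gamma chains. The rule uses no measured value. The groups, each of 3 libraries, were TADA2B knockout by guide 2 with SOX10 overexpression, TADA2B knockout by guide 2, TADA2B knockout by guide 1 with SOX10 overexpression, TADA2B knockout by guide 1, a guide against GFP with SOX10 overexpression, and the guide against GFP alone, called control here. All 18 libraries came from the same line grown in DMEM with serum, and GFP is foreign to these cells. TADA2B encodes an adaptor subunit of the SAGA histone acetyltransferase complex, and SOX10 is a transcription factor that melanocytes inherit from the neural crest. The labels do not say how SOX10 was delivered, whether a knockout line was a clone or a pool, or whether the libraries of a group came from separate cultures, so every p-value measures only the spread between these libraries. The design asks how loss of TADA2B changed these chains and how SOX10 overexpression changed them with and without TADA2B.

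Integrins are cell surface receptors made of an alpha and a beta chain, and each alpha chain accepts a limited set of beta chains. They bind laminins, collagens, fibronectin and other matrix proteins outside the cell and link them through talins, kindlins and other adaptors to the actin or keratin cytoskeleton. Laminins are trimers of an alpha, a beta and a gamma chain and form the sheet to which basement membranes are built. In skin, melanocytes rest on a basement membrane whose laminin keratinocytes secrete, and melanoma cells use integrins and self-made matrix to adhere, migrate and activate latent TGF-beta.

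Total counts ran from 58573910 to 79874237 per library, and 3 counts in a library corresponded to 0.0359 to 0.0493 CPM, counts scaled to a common library size. TADA2B itself averaged 28.8 CPM in guide 2 knockout cells, 26.0 CPM in guide 1 knockout cells and 32.5 CPM in control cells, a level that does not measure whether the reading frame was lost. SOX10 averaged 246 and 291 CPM in the guide 2 and guide 1 knockout cells with SOX10, 43.4 and 83.6 CPM in the same lines without it, 452 CPM in control cells with SOX10 and 354 CPM in control cells. Of the melanocyte markers, MITF averaged 92.1 and 84.3 CPM in guide 2 and guide 1 knockout cells, against 39.7 CPM in control cells. With SOX10, MITF averaged 56.3 and 64.2 CPM in guide 2 and guide 1 knockout cells and 85.45 CPM in control cells. TYR averaged at most 0.027 CPM, MLANA at most 1.16 CPM and PMEL at most 1.55 CPM in any group. S100B averaged 17.8 and 24.8 CPM in guide 2 and guide 1 knockout cells with SOX10, 1.37 and 2.94 CPM in the same lines without it, 35.0 CPM in control cells with SOX10 and 14.2 CPM in control cells. DCT averaged 6.59 and 22.8 CPM in guide 2 and guide 1 knockout cells with SOX10, 0.0793 and 0.0566 CPM without it, 156 CPM in control cells with SOX10 and 1.01 CPM in control cells. The part of these markers in the results was not tested. Replicate 2 of the guide 2 knockout stood apart from its group, with a chi-square per degree of freedom of 11.8 and 10.4 against the other two libraries, where pairs within the other groups gave 3.54 to 8.50. Without it the counts of chains called below were unchanged at 28 for the knockout, 27 for guide 2 alone and 14 between the guides.

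Of the 38 chains, 35 had enough counts to be tested: 23 integrin chains and all 12 laminin chains. The other 3 were ITGA2B, ITGAL and ITGB6, with 45, 4 and 61 counts over all 18 libraries. Of 5 markers of platelets, whose lineage is defined by ITGA2B, GP9, PF4 and PPBP were at 0 in every library. GP1BA averaged 0.497 to 0.881 CPM over the groups. GP6 averaged 0.635 and 0.552 CPM in guide 2 and guide 1 knockout cells with SOX10 and at most 0.0926 CPM in the other groups. In control cells the chains with the highest level per kilobase of exon were ITGB1 at 100.5 CPM per kb, ITGA6 at 99.4, LAMC1 at 79.5 and LAMB1 at 73.5. The next were ITGA3 at 23.1, ITGB5 at 20.8, ITGA5 at 19.1, ITGB3 at 18.1, ITGAV at 17.5 and LAMA4 at 16.8 CPM per kb. The common subunits ITGB1, LAMB1 and LAMC1 therefore stood above nearly all of their partners, with ITGA6 the alpha chain nearest to its beta chain.

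With both guides averaged, 28 of the 35 tested chains differed between knockout and control cells at an adjusted p under 0.05, 15 higher and 13 lower, where 58.1% of all 21060 genes tested were called, 28.6% higher and 29.5% lower. At 2-fold or more, 11 chains were higher and 5 lower in knockout cells, and 15% of all genes passed that rule. The chains at least 2-fold higher were ITGB7, ITGB2, ITGAX, LAMA1, ITGAD, LAMB3, LAMA3, ITGA11, ITGB4, LAMA5 and ITGA2, and those at least 2-fold lower were ITGA9, ITGB8, LAMA4, ITGB3 and ITGA6. The median log2 difference was 0.11 over the tested chains and -0.0090 over all genes. Without scaling factors, with library totals alone, the median over all genes moved to 0.146 and the split of the chains to 17 higher and 11 lower, while that of all called genes moved to 72% higher, against 49.3% with scaling factors. All tests are edgeR quasi-likelihood F tests with Benjamini-Hochberg adjustment over all genes tested, and a chain is said to rise or fall only where it passed.

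SOX10 overexpression changed 32 of the 35 tested chains in knockout cells, 12 upward and 20 downward, with 56.2% of all genes called and 28.1% in each direction. In control cells it changed 28, of which 11 rose and 17 fell, with 34.4% of all genes called, 17.3% upward and 17.2% downward. Those 2 comparisons share no library. In all, 27 chains were called in both, out of 32 and 28, and each of the 27 had the same sign in both, 10 upward and 17 downward. Over all genes 5577 were called in both and 929 of these had opposite signs. At 2-fold or more, 16 chains changed with SOX10 in knockout cells (12% of all genes) and 8 in control cells (6.46% of all genes).

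**Figure D1:**
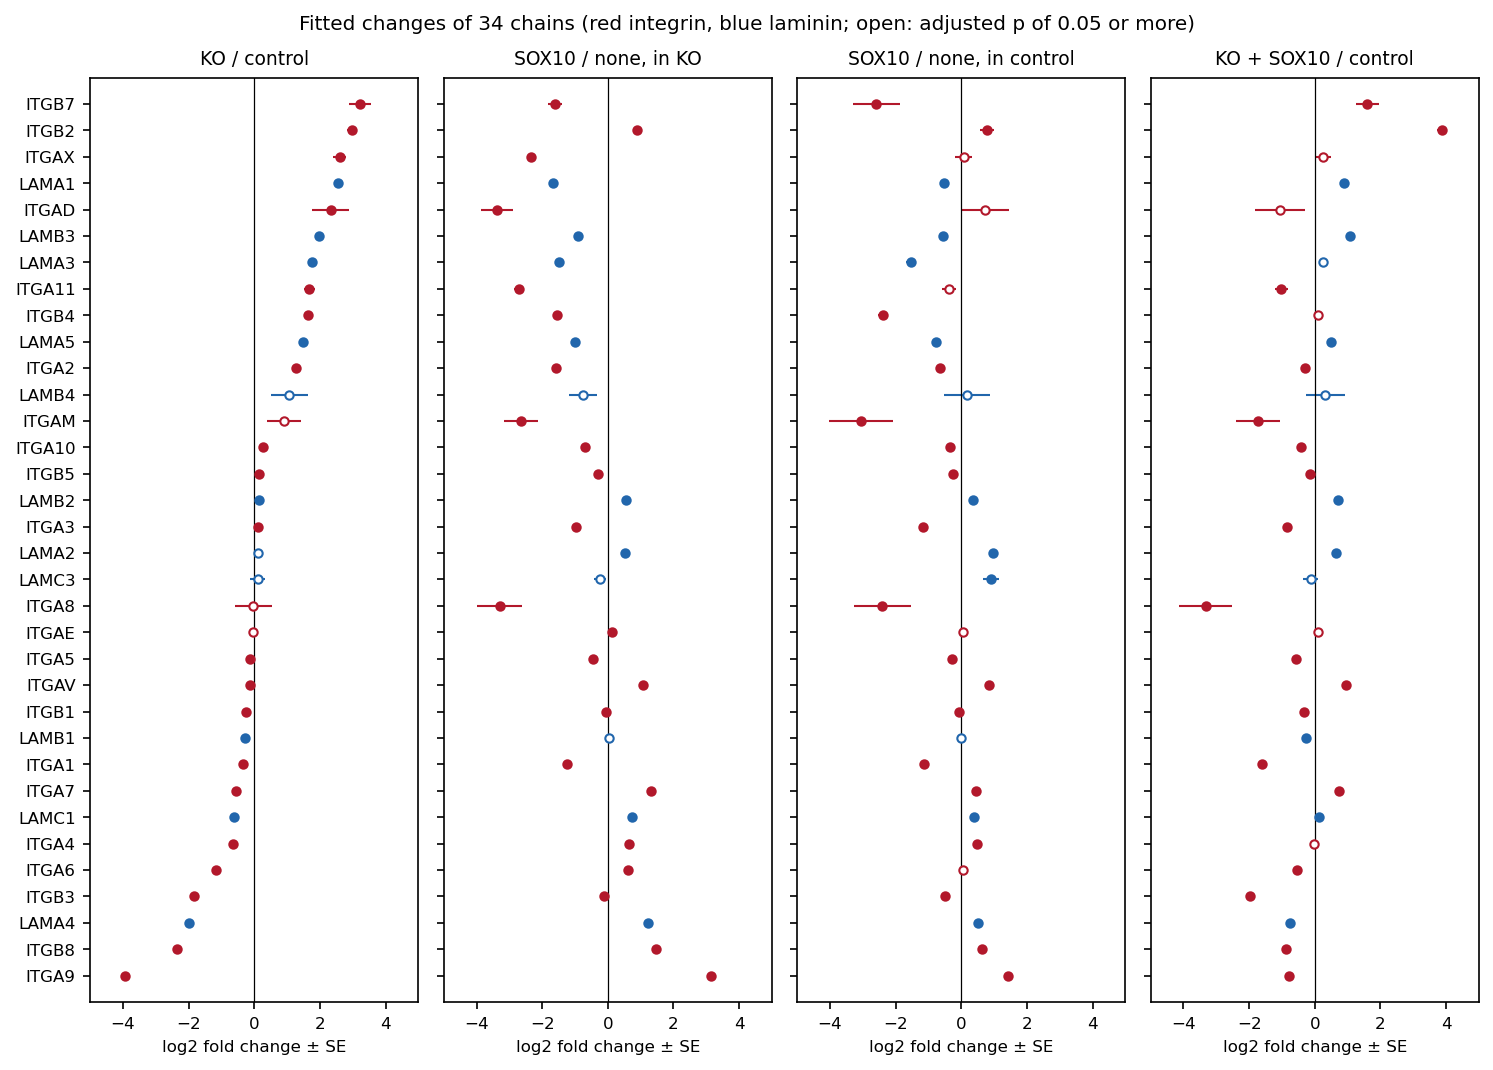
Fitted log2 fold change ± SE of 34 tested chains in 4 comparisons, one row a chain, ordered by the knockout effect (3 libraries a group; open symbols did not pass an adjusted p of 0.05). In the left panel ITGB7 is at the top at 3.22 and ITGA9 at the bottom at -3.93, and in the next panel ITGA9 is the highest at 3.14.

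Among the laminin alpha chains, which set the receptor specificity of the trimer, LAMA4 fell and LAMA5, LAMA1 and LAMA3 rose in knockout cells. LAMA4, the alpha chain of vascular and mesenchymal basement membranes (chr6:112108760-112254939, minus strand, hg38), had 42.2, 42.1 and 40.2 CPM in guide 2 knockout libraries and 61.2, 58.01 and 57.8 CPM in guide 1 knockout libraries, against 199, 193 and 193 CPM in control libraries. The knockout difference was -1.98 ± 0.027 (SE; adjusted p = 1.06e-40) on the log2 scale. Together with SOX10, LAMA4 had 99.6, 95.0 and 99.0 CPM in guide 2 and 138, 138 and 129 CPM in guide 1 knockout libraries, and 289.6, 279 and 273 CPM in control libraries. Every library with SOX10 stood above every library of the same line without it, and LAMA4 rose by 1.21 ± 0.023 (SE) in knockout and by 0.52 ± 0.031 (SE) in control cells on the log2 scale (adjusted p = 2.58e-35 and 7.37e-18). The 5 endothelial markers summed to 2.30 to 2.69 CPM in guide 2 and 2.29 to 2.42 CPM in guide 1 knockout libraries, against 3.70 to 4.75 CPM in control libraries. With SOX10 they summed to 36.2 to 36.4 CPM in guide 2 knockout, 29.8 to 31.7 CPM in guide 1 knockout and 10.9 to 11.5 CPM in control libraries, nearly all of it KDR, while PECAM1 averaged at most 0.565 CPM in any group. Their part in the LAMA4 result was not tested.

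LAMA5, the alpha chain of most adult epithelial and vascular basement membranes (chr20:62307955-62367312, minus strand), had 65.8, 52.5 and 57.6 CPM in guide 2 knockout libraries and 69.7, 65.5 and 57.3 CPM in guide 1 knockout libraries, against 22.6, 21.8 and 21.4 CPM in control libraries. The log2 difference was 1.49 ± 0.068 (SE; adjusted p = 1.23e-13). LAMA1, the alpha chain of the early embryo (chr18:6941744-7117814, minus strand), had 15.8, 16.1 and 16.3 CPM in guide 2 and 12.6, 12.4 and 13.2 CPM in guide 1 knockout libraries, against 2.06, 2.51 and 2.75 CPM in control libraries (log2 difference 2.55, adjusted p = 6.02e-26). LAMA3, the epithelial anchoring chain (chr18:23689443-23956222, plus strand), was scarce, with 5.75, 5.28 and 5.04 CPM in guide 2 and 5.61, 5.51 and 5.41 CPM in guide 1 knockout libraries, against 1.45, 1.72 and 1.69 CPM in control libraries (log2 difference 1.75, adjusted p = 1.61e-17). For these 3 chains no knockout library overlapped a control library. LAMA2, the alpha chain of muscle and peripheral nerve, averaged 6.19 ± 0.53 CPM in guide 2 and 6.74 ± 0.26 CPM in guide 1 knockout cells and 6.00 ± 0.11 CPM in control cells (SD, n = 3 each), and was not called (log2 difference 0.11 ± 0.069 SE, adjusted p = 0.191).

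With SOX10 the same 3 chains fell. LAMA5 had 31.8, 34.1 and 31.2 CPM in guide 2 and 30.1, 27.5 and 30.2 CPM in guide 1 knockout libraries with SOX10, and 13.0, 13.0 and 12.8 CPM in control libraries with SOX10. Its log2 change was -0.99 in knockout and -0.76 in control cells. LAMA1 had 5.05, 4.87 and 5.15 CPM in guide 2 and 3.69, 4.28 and 4.02 CPM in guide 1 knockout libraries with SOX10, and 1.99, 1.77 and 1.34 CPM in control libraries with SOX10. The changes were -1.67 in knockout and -0.51 in control cells. Likewise LAMA3 had 1.93, 2.11 and 2.27 CPM in guide 2 and 1.72, 1.63 and 2.06 CPM in guide 1 knockout libraries with SOX10, and 0.519, 0.645 and 0.515 CPM in control libraries with SOX10, changes of -1.48 in knockout and -1.53 in control cells. All 6 of these changes passed the test, the largest adjusted p being 0.000707. LAMA2 went the other way and rose by 0.53 in knockout and 0.97 in control cells, reaching 8.59 ± 0.26 CPM in guide 2 knockout, 10.1 ± 0.31 CPM in guide 1 knockout and 11.8 ± 0.78 CPM in control cells with SOX10 (SD, n = 3 each).

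Set per kilobase of exon, the makeup of the laminin alpha messages therefore differed between the groups. LAMA4 made up 37.2% ± 2.0 of the class in guide 2 knockout cells and 44.7% ± 1.1 in guide 1 knockout cells, against 87.6% ± 0.096 in control cells (SD, n = 3 each). LAMA5 made up 42.4% ± 2.7 and 39.3% ± 2.0 in guide 2 and guide 1 knockout cells, against 7.97% ± 0.12 in control cells. With SOX10 the LAMA4 share was 70.4% ± 1.2 in guide 2 knockout, 77.4% ± 1.0 in guide 1 knockout and 91.7% ± 0.40 in control cells, and the LAMA5 share 18.9% ± 1.1, 13.6% ± 0.93 and 3.43% ± 0.071 in the same groups. LAMA5 was the larger share in guide 2 knockout cells by exon length, but LAMA4 was the larger by the length of the longest transcript (44.8% against 36.2%), so their order in that line depends on the length used. The summed alpha level was 9.66 ± 0.51 and 11.4 ± 0.58 CPM per kb in guide 2 and guide 1 knockout cells, against 19.2 ± 0.29 CPM per kb in control cells. These shares are descriptions with no test, and in bulk RNA fewer cells carrying a message and less message per cell cannot be told apart.

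**Figure D2:**
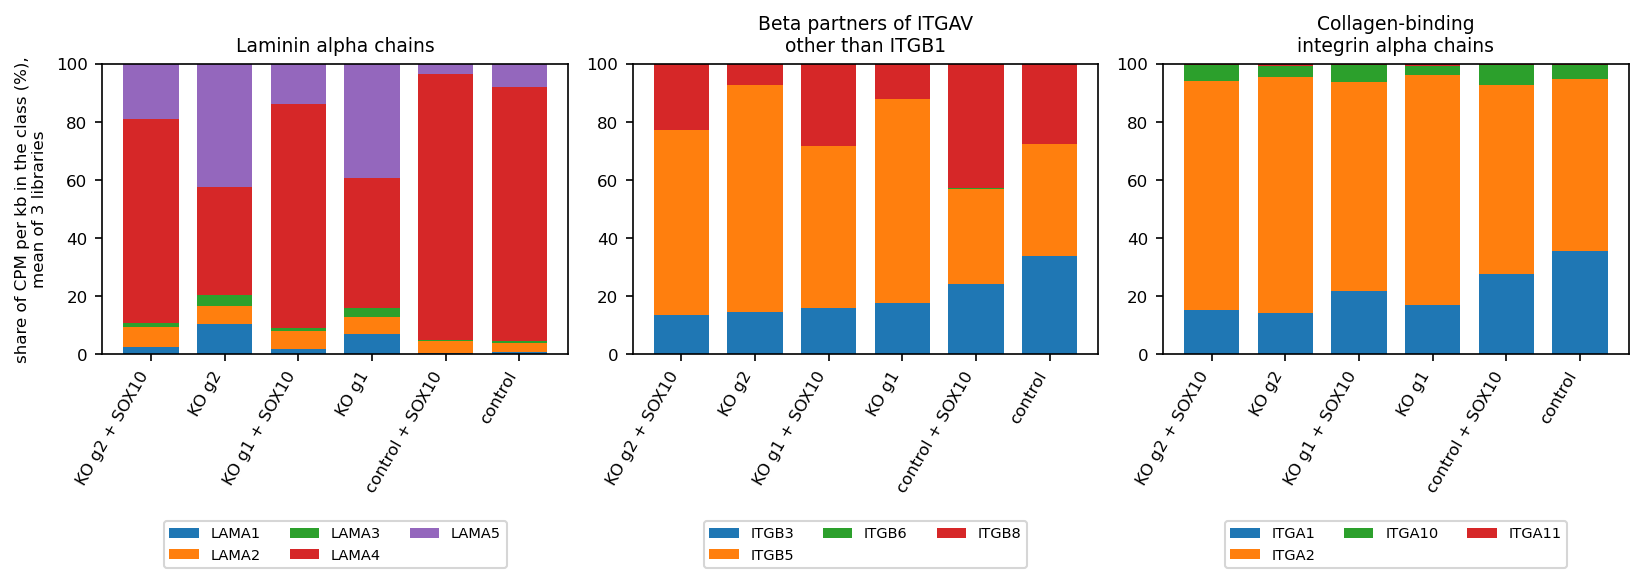
Mean share (3 libraries a group) of each chain in the summed CPM per kb of exon of its class, in percent, for laminin alpha chains, the beta partners of ITGAV other than ITGB1, and collagen-binding integrin alpha chains. LAMA4 takes 37.2% and 44.7% of the laminin alpha class in guide 2 and guide 1 knockout cells, against 87.6% in control cells, and ITGB8 takes 7.04% and 12.1% of the ITGAV partners, against 27.4%. The ITGAV partner shares depend on how reads in ITGB3 bases shared with another gene on the same strand were counted.

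Among the laminin beta and gamma chains LAMB3 alone passed 2-fold with knockout. LAMB3, the beta chain of the epithelial anchoring trimer (chr1:209614870-209652466, minus strand), had 51.2, 43.6 and 45.9 CPM in guide 2 knockout libraries and 49.3, 44.4 and 44.2 CPM in guide 1 knockout libraries, against 12.6, 11.6 and 11.2 CPM in control libraries. It rose by 1.98 ± 0.055 (SE; adjusted p = 4.23e-29) with knockout, and every knockout library stood above every control library. Adding SOX10 left LAMB3 at 25.2, 27.8 and 27.6 CPM in guide 2 and 22.1, 23.3 and 23.7 CPM in guide 1 knockout libraries and 8.30, 7.80 and 7.72 CPM in control libraries. This was a fall of 0.90 in knockout and of 0.57 in control cells on the log2 scale. Its partner LAMA3 was scarcer per kilobase in all groups, at 0.365 against 10.0 CPM per kb in guide 2 knockout cells, 0.375 against 9.80 in guide 1 knockout cells and 0.110 against 2.52 in control cells.

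The common chains LAMB1 and LAMC1, which enter most trimers, both fell with knockout. LAMC1 averaged 389 ± 6.5 CPM in guide 2 and 484 ± 4.1 CPM in guide 1 knockout cells, against 668 ± 8.5 CPM in control cells (SD, n = 3 each; log2 difference -0.62, adjusted p = 4.62e-27). SOX10 raised it by 0.75 in knockout and 0.39 in control cells. LAMB1 averaged 467 ± 17.9 and 518 ± 12.0 CPM in guide 2 and guide 1 knockout cells, against 598 ± 8.9 CPM in control cells (log2 difference -0.28). With both guides averaged, LAMB1 did not pass for SOX10 in either background (0.022 ± 0.019 in knockout and -0.018 ± 0.027 in control cells). LAMB2, a beta chain of synapses and kidney, rose by 0.15 with knockout, above a mean of 49.7 CPM in control cells, and by 0.55 and 0.35 with SOX10 in knockout and control cells. LAMC3 was near 1 CPM or less, with 0.515, 0.737 and 0.589 CPM in guide 2 and 0.4998, 0.429 and 0.665 CPM in guide 1 knockout libraries, against 0.522, 0.519 and 0.553 CPM in control libraries. In the SOX10 groups LAMC3 had 0.524, 0.684 and 0.493 CPM in guide 2 knockout, 0.414, 0.377 and 0.458 CPM in guide 1 knockout and 0.887, 1.29 and 0.824 CPM in control libraries. LAMC3 was called in control cells (0.91) and not in knockout cells (-0.23). LAMB4 had 2 to 20 counts in every library and was called in no comparison.

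Promoter sequences are shown for a pair of laminin chains that rose with knockout and fell with SOX10, LAMA3 and LAMB3, and for LAMA4 and ITGB8, which fell with knockout and rose with SOX10. Each is the 250 bases before the gene start given by RefSeq on GRCh38.p14, written 5′ to 3′ along the gene, with matches to the AP-1 letters TGACTCA or TGAGTCA in capitals. The LAMA3 window (chr18:23872770-23873019, plus strand) belongs to a start inside the longer gene, and the LAMB3 window (chr1:209651375-209651624, minus strand) is one of 3 that RefSeq gives. That LAMB3 window was printed because it holds the AP-1 letters, so their presence in it is not a result. The LAMA4 window is chr6:112254568-112254817 on the minus strand and the ITGB8 window chr7:20330650-20330899 on the plus strand. The RefSeq start of LAMA4 lies 372 bases inside the annotated gene, so its whole window lies within the gene. That of ITGB8 lies 198 bases inside, so most of its window does too. Bases before those annotated starts are therefore little covered for ITGB8 and not covered for LAMA4.
LAMA3: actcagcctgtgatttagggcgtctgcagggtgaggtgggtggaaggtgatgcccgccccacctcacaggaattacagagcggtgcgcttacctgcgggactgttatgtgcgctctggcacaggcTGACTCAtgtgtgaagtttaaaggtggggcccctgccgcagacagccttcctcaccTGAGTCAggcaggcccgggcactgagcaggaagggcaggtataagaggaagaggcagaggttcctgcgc
LAMB3: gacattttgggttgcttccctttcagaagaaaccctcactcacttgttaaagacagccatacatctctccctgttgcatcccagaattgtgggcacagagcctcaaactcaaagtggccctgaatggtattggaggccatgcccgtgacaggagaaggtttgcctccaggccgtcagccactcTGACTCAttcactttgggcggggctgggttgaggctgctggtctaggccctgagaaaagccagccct
LAMA4: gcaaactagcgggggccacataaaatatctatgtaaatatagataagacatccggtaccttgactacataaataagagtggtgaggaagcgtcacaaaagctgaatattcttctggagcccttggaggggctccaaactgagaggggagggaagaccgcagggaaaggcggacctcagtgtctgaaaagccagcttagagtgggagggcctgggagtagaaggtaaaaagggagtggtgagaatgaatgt
ITGB8: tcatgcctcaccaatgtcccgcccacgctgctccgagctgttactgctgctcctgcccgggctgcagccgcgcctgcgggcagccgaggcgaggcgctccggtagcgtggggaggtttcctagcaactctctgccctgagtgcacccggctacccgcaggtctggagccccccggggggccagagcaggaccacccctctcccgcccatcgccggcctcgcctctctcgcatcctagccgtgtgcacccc

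The AP-1 letters stood 125 and 69 bases before the LAMA3 start and 67 bases before the LAMB3 start, and were in neither of the other printed windows. The printed LAMB3 window lies 1092 bases from the annotated gene start. The other LAMB3 windows, 41 and 137 bases from it, held no AP-1 letters, and the nearer held the SOX letters. Neither the SOX letters ACAAAG or ACAATG nor the TEAD letters GGAATG were in any of the 4 printed stretches, on either strand. Among 35116 RefSeq promoter windows of 300 bases, 4.95% held the AP-1 letters, 24.5% the SOX letters and 14% the TEAD letters. Among the 33 windows of this length found for the chains, 3 held AP-1 letters (9.09%), 4 held SOX letters (12.1%) and 4 held TEAD letters (12.1%). The 3 with AP-1 letters were of LAMA3, LAMB3 and ITGA5. With both guides averaged ITGA5 was lower with knockout (-0.12), but it had the other sign, 0.037, with library totals. It averaged 122 CPM in guide 2 and 145 CPM in guide 1 knockout cells, against 145 CPM in control cells. The windows of LAMA5, ITGA2 and ITGB7, which also rose with knockout and fell with SOX10, held no AP-1 letters. A match of letters is a description, not a site.

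The laminin receptors were led by ITGA6, which pairs with ITGB1 or ITGB4, and it fell with knockout while ITGB4 rose. ITGA6 (chr2:172427354-172506282, plus strand) had 249, 253 and 246 CPM in guide 2 knockout libraries and 338, 338 and 331.7 CPM in guide 1 knockout libraries, against 644, 655 and 649 CPM in control libraries. Knockout and control differed by -1.17 ± 0.021 (SE; adjusted p = 1.36e-36). Under SOX10 the values were 401, 390.4 and 399.7 CPM in guide 2 and 499.7, 502 and 486 CPM in guide 1 knockout libraries and 679.8, 649 and 671 CPM in control libraries. SOX10 raised ITGA6 in knockout cells by 0.62 (adjusted p = 2.63e-29), while its change was not called in control cells (0.038 ± 0.025, adjusted p = 0.251), and the 2 effects differed by 0.58 ± 0.030 (SE; adjusted p = 2.56e-19).

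ITGB4, whose only alpha partner is ITGA6 and which anchors keratin at hemidesmosomes (chr17:75721328-75757818, plus strand), had 18.9, 17.5 and 15.8 CPM in guide 2 knockout libraries and 22.6, 20.5 and 20.7 CPM in guide 1 knockout libraries, against 6.99, 6.33 and 5.27 CPM in control libraries. It rose by 1.63 ± 0.10 (SE; adjusted p = 2.72e-13), with no overlap between the groups. SOX10 brought ITGB4 to 7.16, 6.74 and 6.07 CPM in guide 2 and 5.90, 6.79 and 7.17 CPM in guide 1 knockout libraries and 1.65, 0.940 and 0.985 CPM in control libraries. The log2 change was -1.53 in knockout and -2.37 in control cells. Per kilobase ITGB4 stayed far below ITGA6, at 2.57 against 38.2 CPM per kb in guide 2 knockout cells, 3.15 against 51.4 in guide 1 knockout cells and 0.917 against 99.4 in control cells. The 6 keratinocyte markers summed to 6.71 to 7.29 CPM in guide 2 knockout, 6.88 to 7.61 CPM in guide 1 knockout and 5.89 to 6.07 CPM in control libraries, and their part in the ITGB4 result was not tested. With SOX10 they summed to 10.0 to 12.1 CPM in guide 2 knockout, 7.95 to 8.72 CPM in guide 1 knockout and 3.61 to 4.25 CPM in control libraries. KRT14 and COL17A1 made up most of these sums and went opposite ways, as given below, while KRT1, DSG3 and TP63 averaged at most 0.041 CPM in any group.

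ITGA3, the other main laminin-binding alpha chain, differed little with knockout but fell with SOX10. It had 233, 208 and 223 CPM in guide 2 and 276, 269 and 267 CPM in guide 1 knockout libraries, against 228, 225 and 228 CPM in control libraries. It was higher with guide 1 (0.26, adjusted p = 1.2e-08) and not called with guide 2 (-0.036). SOX10 brought ITGA3 to 118, 119 and 118 CPM in guide 2 and 124, 134 and 138 CPM in guide 1 knockout libraries and 99.6, 101.2 and 99.96 CPM in control libraries. The log2 change was -0.97 in knockout and -1.18 in control cells. ITGA7, the laminin receptor of muscle, had 3.58, 3.27 and 2.74 CPM in guide 2 and 3.28, 3.38 and 3.55 CPM in guide 1 knockout libraries, against 5.14, 4.597 and 4.84 CPM in control libraries (log2 difference -0.56). In the SOX10 groups ITGA7 had 8.70, 8.75 and 7.38 CPM in guide 2 knockout, 6.69, 8.69 and 8.75 CPM in guide 1 knockout and 6.65, 6.57 and 6.56 CPM in control libraries. ITGA7 rose by 1.31 in knockout and 0.44 in control cells. Within the class of these 3 alpha chains, ITGA3 made up 36.8% ± 1.6 in guide 2 and 34.7% ± 0.32 in guide 1 knockout cells, against 18.8% ± 0.24 in control cells (SD, n = 3 each).

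**Figure D3:**
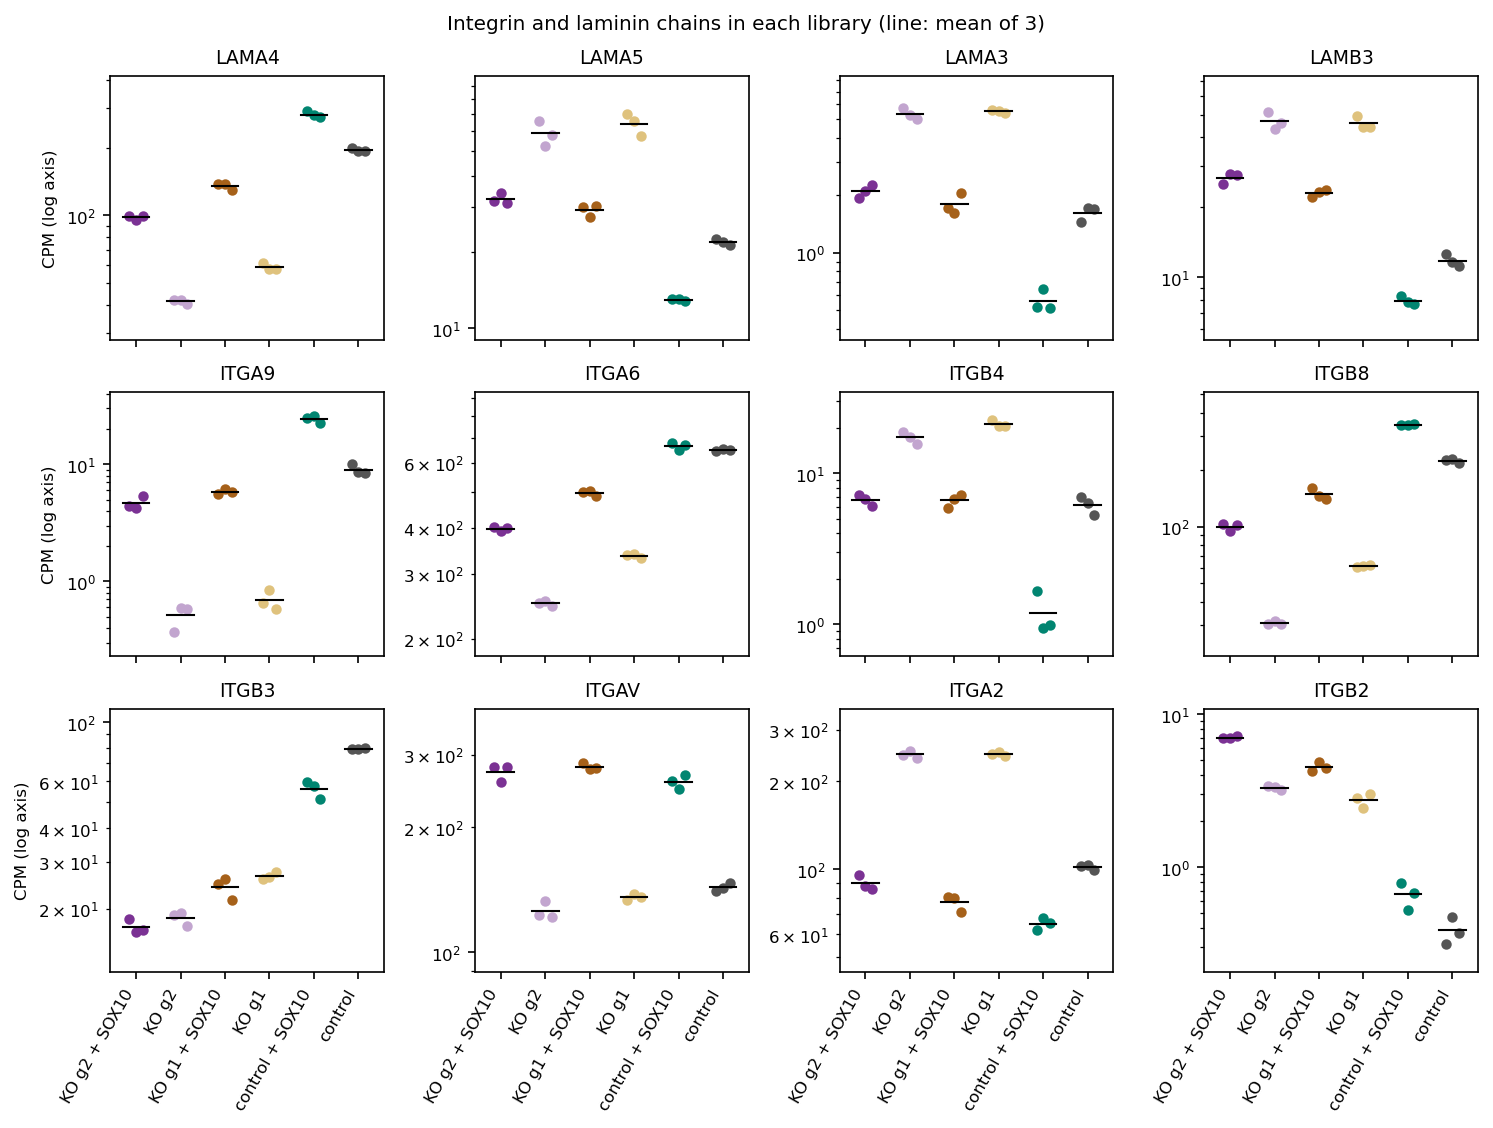
CPM of 12 chains in each library on a log axis, one panel a chain, points for the 3 libraries of each group and a line for their mean, with each SOX10 group left of its own line without SOX10. LAMA4, ITGA9, ITGA6 and ITGB8 are lowest in the knockout libraries without SOX10, while LAMA5, LAMA3, LAMB3, ITGB4 and ITGA2 are highest there.

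The collagen receptors ITGA1 and ITGA2, encoded beside each other on chromosome 5 and both paired with ITGB1, went opposite ways with knockout. ITGA2 (chr5:52989326-53094779, plus strand) had 246, 254 and 241 CPM in guide 2 knockout libraries and 249, 252 and 245 CPM in guide 1 knockout libraries, against 103, 103 and 99.5 CPM in control libraries. The rise was 1.28 ± 0.035 (SE; adjusted p = 2.79e-25). ITGA1 (chr5:52787896-52959210, plus strand) had 101.3, 105 and 99.9 CPM in guide 2 and 124, 127 and 120.2 CPM in guide 1 knockout libraries, against 144, 143 and 145 CPM in control libraries. The log2 difference was -0.36 ± 0.027 (SE; adjusted p = 3.21e-15). ITGA2 therefore made up 81.3% ± 0.13 and 79.5% ± 0.095 of the collagen-binding alpha messages in guide 2 and guide 1 knockout cells, against 59.1% ± 0.44 in control cells (SD, n = 3 each).

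With SOX10 both fell. ITGA2 had 95.2, 87.5 and 85.8 CPM in guide 2 and 80.1, 79.9 and 71.1 CPM in guide 1 knockout libraries and 62.0, 67.9 and 65.5 CPM in control libraries with SOX10. The log2 change was -1.58 in knockout and -0.64 in control cells. ITGA1 had 40.5, 40.7 and 42.4 CPM in guide 2 and 55.5, 55.7 and 52.3 CPM in guide 1 knockout libraries and 65.1, 65.4 and 65.4 CPM in control libraries with SOX10. Its change was -1.24 in knockout and -1.14 in control cells. ITGA1 was thus lowest in knockout cells with SOX10, at -1.60 on the log2 scale relative to control cells, with no overlap with any other group. The summed level of the collagen-binding class was 38.4 ± 0.98 and 39.5 ± 0.53 CPM per kb in guide 2 and guide 1 knockout cells, against 21.8 ± 0.27 CPM per kb in control cells.

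ITGA11, a collagen receptor of fibroblasts, had 2.79, 2.18 and 2.56 CPM in guide 2 and 3.04, 2.56 and 2.95 CPM in guide 1 knockout libraries, against 0.611, 1.19 and 0.707 CPM in control libraries. The rise was 1.68 ± 0.18 (SE; adjusted p = 6.28e-11). In the SOX10 groups ITGA11 had 0.317, 0.301 and 0.296 CPM in guide 2 knockout, 0.427, 0.754 and 0.485 CPM in guide 1 knockout and 0.532, 0.698 and 0.706 CPM in control libraries. The change was called in knockout cells (-2.70) and not in control cells (-0.37, adjusted p = 0.22). The sum of 6 fibroblast markers was higher beside it, at 40.1 to 42.5 CPM in guide 2 and 35.9 to 40.2 CPM in guide 1 knockout libraries. In control libraries the sum was 6.63 to 8.78 CPM. LUM averaged 23.3 and 21.9 CPM in guide 2 and guide 1 knockout cells, against 2.61 CPM in control cells, with COL1A2 at most 0.094 CPM in any group mean. With SOX10 these sums were 52.6 to 54.4 CPM in guide 2 knockout, 46.1 to 46.9 CPM in guide 1 knockout and 10.3 to 11.1 CPM in control libraries. The markers did not move together with SOX10 in knockout cells. COL1A1 averaged 9.1 and 8.1 CPM in guide 2 and guide 1 knockout cells, against 3.2 and 3.1 CPM with SOX10. PDGFRB (7.4 and 7.2 against 4.22 and 3.85 CPM) and COL3A1 were also lower with SOX10, while LUM and DCN were higher. The part of these markers in the ITGA11 result was not tested. ITGA10, a collagen receptor of cartilage, ranged over 4.77 to 9.30 CPM in all libraries and rose by 0.28 with knockout, called with guide 2 (0.42) and not with guide 1 (0.14).

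ITGAV pairs with ITGB1, ITGB3, ITGB5, ITGB6 or ITGB8, the receptors of vitronectin, fibronectin and latent TGF-beta, and in knockout cells ITGB8 and ITGB3 changed far more than ITGAV. ITGB8, the beta chain that activates latent TGF-beta (chr7:20330702-20415754, plus strand), had 30.5, 31.6 and 30.4 CPM in guide 2 knockout libraries and 61.3, 62.1 and 62.5 CPM in guide 1 knockout libraries, against 225, 227 and 216 CPM in control libraries. The log2 difference was -2.35 ± 0.030 (SE; adjusted p = 1.11e-39), and guide 2 stood below guide 1, with a log2 difference of -1.01 ± 0.039 (SE; adjusted p = 6.52e-22). With SOX10 ITGB8 had 104, 94.3 and 101.3 CPM in guide 2 and 159, 145 and 140.2 CPM in guide 1 knockout libraries and 345, 343 and 349 CPM in control libraries. ITGB8 rose by 1.48 in knockout and 0.63 in control cells. Every knockout library with SOX10 still stood below every control library, with a log2 difference of -0.87.

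ITGB3, the vitronectin receptor chain known in melanoma from its vertical growth phase (chr17:47253846-47311816, plus strand), had 18.9, 19.3 and 17.2 CPM in guide 2 knockout libraries and 25.8, 26.2 and 27.4 CPM in guide 1 knockout libraries, against 79.2, 79.3 and 79.8 CPM in control libraries. Knockout and control differed by -1.85 ± 0.046 (SE; adjusted p = 3.52e-27). SOX10 did not raise it: it had 18.3, 16.3 and 16.7 CPM in guide 2 and 24.8, 25.8 and 21.5 CPM in guide 1 knockout libraries and 59.5, 57.5 and 51.5 CPM in control libraries with SOX10. Its log2 change was -0.12 in knockout and -0.50 in control cells. The small change in knockout cells passed (adjusted p = 0.0145). It did not pass without guide 1 replicate 3 (-0.10), guide 1 with SOX10 replicate 3 (-0.079), guide 2 replicate 2 (-0.10) or guide 2 with SOX10 replicate 2 (-0.098). A gene on the same strand, AC068234.1, covers 51.6% of the exon bases of ITGB3 and had 0 counts in every library, and how reads in shared bases were counted is not given in the sources used here.

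ITGB5, the vitronectin receptor chain of many epithelial and mesenchymal cells, averaged 146 ± 7.6 CPM in guide 2 and 152 ± 5.1 CPM in guide 1 knockout cells, against 134 ± 4.1 CPM in control cells (SD, n = 3 each; log2 difference 0.16). Among the beta partners of ITGAV other than ITGB1, ITGB5 made up 78.4% ± 1.4 in guide 2 and 70.0% ± 0.98 in guide 1 knockout cells, against 38.8% ± 0.97 in control cells. ITGB8 made up 7.04% ± 0.39 and 12.1% ± 0.33 in guide 2 and guide 1 knockout cells, against 27.4% ± 0.89 in control cells. With SOX10 the ITGB8 share was 22.9% ± 0.69 in guide 2 knockout, 28.1% ± 1.6 in guide 1 knockout and 42.9% ± 0.83 in control cells. These shares use all exon bases of ITGB3, including the 51.6% shared with AC068234.1. If reads there were not counted, the ITGB3 share would be too low and the others too high. ITGB6, the epithelial partner, had at most 18 counts in any library.

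ITGAV itself (chr2:186590065-186680901, plus strand) had 123, 133 and 121.3 CPM in guide 2 and 133, 138 and 136 CPM in guide 1 knockout libraries, against 140.4, 143 and 147 CPM in control libraries. The difference was -0.14 on the log2 scale, and it had the other sign, 0.020, with library totals in place of scaling factors. With guide 1 alone the difference of -0.080 was also of the other sign with library totals (0.068), and it did not pass without control replicate 2 (-0.085) or 3 (-0.063) or guide 1 replicate 1 (-0.070) or 3 (-0.080). Nor did it pass in DESeq2, with its size factors, or with either other filter on low counts (adjusted p of 0.0862 to 0.144). With guide 2 the ITGAV difference of -0.19 did not pass with library totals (-0.028, adjusted p = 0.498). SOX10 raised it to 281, 258 and 279.7 CPM in guide 2 knockout, 286, 278 and 279 CPM in guide 1 knockout and 258, 248 and 269 CPM in control libraries. The rise was 1.09 ± 0.024 (SE; adjusted p = 1.14e-31) in knockout and 0.85 ± 0.034 (SE; adjusted p = 1.68e-22) in control cells. All 9 libraries with SOX10 stood above all 9 without it. Per kilobase ITGAV was below ITGB5 in knockout cells and in control cells, and above it in every group with SOX10.

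The fibronectin receptor ITGA5 and the shared beta chain ITGB1 changed little. ITGA5 averaged 122 ± 5.9 CPM in guide 2 and 145 ± 2.4 CPM in guide 1 knockout cells, against 145 ± 4.8 CPM in control cells (SD, n = 3 each), a log2 difference of -0.12 over both guides that had the other sign, 0.037, with library totals. With SOX10 it fell by 0.45 in knockout and by 0.28 in control cells on the log2 scale. ITGB1 averaged 487 ± 9.1 and 519 ± 2.0 CPM in guide 2 and guide 1 knockout cells, against 604 ± 5.3 CPM in control cells, a log2 difference of -0.26, and its SOX10 changes were -0.063 in knockout and -0.079 in control cells. The change in control cells did not pass without replicate 2 of the control with SOX10 (-0.062), or with no filter on low counts (-0.061). Among its alpha partners, per kilobase, ITGA6 made up 27.5% ± 0.29 in guide 2 and 31.5% ± 0.026 in guide 1 knockout cells, against 50.8% ± 0.32 in control cells. ITGA2 made up 22.5% ± 0.52 and 19.2% ± 0.12 in guide 2 and guide 1 knockout cells, against 6.58% ± 0.14 in control cells, and ITGAV 22.8% ± 0.67 and 20.5% ± 0.35 in guide 2 and guide 1 knockout cells with SOX10, against 11.0% ± 0.53 and 10.1% ± 0.19 without it.

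ITGA9 and ITGA4, the pair of alpha chains that bind tenascin, osteopontin and VCAM1, both fell with knockout and both rose with SOX10. ITGA9 (chr3:37452115-37823514, plus strand) had 0.371, 0.590 and 0.577 CPM in guide 2 knockout libraries and 0.653, 0.845 and 0.577 CPM in guide 1 knockout libraries, against 9.97, 8.66 and 8.39 CPM in control libraries. Its log2 difference of -3.93 ± 0.10 (SE; adjusted p = 3.37e-30) was the most negative of the 35 chains. In the SOX10 groups ITGA9 had 4.43, 4.27 and 5.39 CPM in guide 2 and 5.54, 6.16 and 5.81 CPM in guide 1 knockout libraries and 24.7, 25.6 and 22.4 CPM in control libraries. ITGA9 rose by 3.14 in knockout and 1.43 in control cells. Knockout libraries with SOX10 stood between the knockout libraries and the control libraries, with no overlap on either side.

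ITGA4 averaged 62.0 ± 1.1 CPM in guide 2 and 66.4 ± 0.60 CPM in guide 1 knockout cells, against 101.4 ± 1.8 CPM in control cells (SD, n = 3 each). Knockout and control differed by -0.66 ± 0.026 (SE; adjusted p = 1.67e-24). With SOX10 it averaged 90.8 ± 1.3 CPM in guide 2 knockout, 111.4 ± 2.0 CPM in guide 1 knockout and 140.4 ± 3.4 CPM in control cells. With both guides averaged, knockout cells with SOX10 differed from control cells by -0.012 ± 0.026 (SE; adjusted p = 0.73) for this chain. That average hides opposite sides. Every guide 2 knockout library with SOX10 stood below every control library, and every guide 1 knockout library with SOX10 stood above. ITGB7, the lymphocyte beta partner of ITGA4 and ITGAE, had 88, 69 and 96 counts in guide 2 and 78, 94 and 95 counts in guide 1 knockout libraries, against 2, 7 and 15 counts in control libraries. ITGB7 rose by 3.22 ± 0.33 (SE; adjusted p = 2.97e-11). Without control replicate 3 that log2 difference was 4.05, 3.97 with guide 2 and 4.12 with guide 1. With SOX10 ITGB7 had 41, 22 and 18 counts in guide 2 knockout, 22, 23 and 39 in guide 1 knockout and 2, 1 and 1 in control libraries, a fall that passed in both backgrounds. In control cells it did not pass without control replicate 3 (-1.76). The antisense gene ZNF740, at 62.5 to 77.3 CPM in the group means, covers 42.1% of the ITGB7 exon bases, and the strand setting of the counting is not given in the sources used here. ITGAE, its other alpha partner, averaged 18.2 and 18.1 CPM in guide 2 and guide 1 knockout cells, against 18.7 CPM in control cells, and was not called (log2 difference -0.044 ± 0.047).

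Among the leukocyte integrins, ITGB2 and its partner ITGAX rose with knockout at low levels. ITGB2 (chr21:44885953-44931989, minus strand) had 3.41, 3.32 and 3.20 CPM in guide 2 and 2.82, 2.44 and 3.00 CPM in guide 1 knockout libraries, against 0.313, 0.475 and 0.369 CPM in control libraries. The rise was 2.96 ± 0.15 (SE; adjusted p = 1.51e-20). SOX10 raised it further, to 6.94, 7.00 and 7.15 CPM in guide 2 knockout and 4.24, 4.90 and 4.46 CPM in guide 1 knockout libraries, with 0.791, 0.524 and 0.677 CPM in control libraries with SOX10. The log2 changes were 0.90 in knockout and 0.78 in control cells. Knockout cells with SOX10 were 3.87 ± 0.14 (SE; adjusted p = 5.52e-25) above control cells on the log2 scale, the largest positive difference of the 35 chains in that comparison. ITGAX had 3.33, 3.79 and 3.72 CPM in guide 2 and 3.87, 2.76 and 3.00 CPM in guide 1 knockout libraries, against 0.477, 0.623 and 0.584 CPM in control libraries. ITGAX rose by 2.60 ± 0.19 (SE; adjusted p = 9.78e-15). In the SOX10 groups ITGAX had 0.792, 0.602 and 0.312 CPM in guide 2 knockout, 0.724, 0.858 and 0.741 CPM in guide 1 knockout and 0.805, 0.403 and 0.559 CPM in control libraries. The change was -2.33 in knockout cells and was not called in control cells (0.069 ± 0.26). ITGB2 and ITGAX thus moved together with knockout and in opposite directions with SOX10 in knockout cells.

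The other alpha partners of ITGB2 were at or near the counting floor. ITGAD, encoded in a cluster with ITGAX and ITGAM on chromosome 16, had 23, 16 and 14 counts in guide 2 and 35, 21 and 23 counts in guide 1 knockout libraries, against 2, 5 and 4 counts in control libraries (adjusted p = 0.000477, higher in 6 of 6 knockout libraries). With SOX10 ITGAD had 1, 0 and 3 counts in guide 2 knockout, 4, 4 and 0 in guide 1 knockout and 14, 3 and 3 in control libraries. ITGAM had 20, 6 and 12 counts in guide 2 and 7, 19 and 15 in guide 1 knockout libraries, against 5, 5 and 8 in control libraries, and was not called (adjusted p = 0.142). With SOX10 ITGAM had 7, 2 and 2 counts in guide 2 knockout, 3, 0 and 0 in guide 1 knockout and 0, 1 and 1 in control libraries. ITGA8, a partner of ITGB1 in kidney and smooth muscle, was at the same low level, with 4, 2 and 17 counts in guide 2 and 3, 5 and 17 in guide 1 knockout libraries, against 5, 10 and 6 in control libraries. With SOX10 ITGA8 had 1, 1 and 0 counts in guide 2 knockout, 1, 1 and 0 in guide 1 knockout and 1, 2 and 1 in control libraries.

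Leukocyte markers were mostly absent beside these chains. PTPRC averaged at most 0.119 CPM in any group, and 6 of the 8 markers were below 1 CPM in both knockout lines and 7 of 8 in control cells. The summed markers were 7.96 to 8.58 CPM in guide 2 and 6.75 to 7.42 CPM in guide 1 knockout libraries, against 4.66 to 4.92 CPM in control libraries. In knockout cells with SOX10 they were 20.1 to 22.3 CPM with guide 2 and 14.5 to 15.5 CPM with guide 1. LCP1, the actin bundling protein of leukocytes and many tumour lines, moved with ITGB2, at 4.54 and 2.99 CPM in guide 2 and guide 1 knockout cells, 17.1 and 10.5 CPM in the same lines with SOX10 and 0.241 CPM in control cells. Its part in the ITGB2 result was not tested.

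Between the knockout lines, 14 of the 35 tested chains differed, 2 higher and 12 lower with guide 2 than with guide 1, where 8.74% of all genes were called, 2.65% higher and 6.09% lower. Of the 35, only ITGB8 passed 2-fold, as 0.627% of all genes did. The others lower with guide 2 were ITGB3 (-0.52), LAMA4 (-0.51), ITGA6 (-0.43), LAMC1 (-0.31), ITGA3 (-0.29), ITGA1 (-0.28), ITGA5 (-0.25), LAMB1 (-0.15), ITGAV (-0.11), ITGA4 (-0.10) and ITGB1 (-0.090). The higher were LAMA1 (0.34) and ITGA10 (0.28). ITGAV and ITGA4 did not pass without any one of guide 1 replicates 1, 2 and 3 or guide 2 replicates 1 and 3, with log2 differences of -0.12 to -0.087 for ITGAV and -0.11 to -0.084 for ITGA4. Both also failed with library totals (-0.096 and -0.085) and with only the groups compared (-0.11 and -0.097). With no filter on low counts ITGA4 (-0.093) and ITGB1 (-0.083) did not pass. ITGB1 did not pass without guide 2 replicate 1 (-0.082) or 3 (-0.083), nor ITGA10 without guide 1 replicate 1 (0.27) or 2 (0.24) or guide 2 replicate 1 (0.27). Against control, 27 chains were called with guide 2 and 26 with guide 1, with 55.9% and 52.6% of all genes called. The split was 14 higher and 13 lower with guide 2 (27.9% and 28.1% of all genes) and 14 higher and 12 lower with guide 1 (26.2% and 26.4%). With library totals the split with guide 1 was 18 higher and 10 lower, or 64.3% higher, while 73% of all called genes were higher. Those comparisons share the control libraries. SOX10 was lower with guide 2 than with guide 1, as given above, and its part in these differences was not tested.

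The size of the SOX10 change differed between knockout and control cells for 24 of the 35 chains, with 33.3% of all genes called in that test. The difference was positive for 13 and negative for 11 of them, against 18.1% and 15.1% of all genes. The difference was largest upward for ITGA9, at 1.71 ± 0.14 (SE; adjusted p = 2.08e-13), so that SOX10 raised ITGA9 more in knockout than in control cells. LAMA4 (0.69), ITGB8 (0.84), ITGA7 (0.87), ITGA6 (0.58) and LAMC1 (0.36) differed in the same direction. The difference was negative for ITGA11 (-2.32), ITGAX (-2.40), LAMA1 (-1.16) and ITGA2 (-0.93), all of them lower with SOX10 in knockout cells. ITGB4 (0.84) fell more in control cells. ITGA1 was called at -0.11, but not without any 1 of 11 libraries, with differences of -0.10 to -0.086. LAMA3, LAMA5 and ITGB2 were not called, with differences of 0.043 ± 0.18, -0.23 ± 0.10 and 0.12 ± 0.23 (SE). The step in SOX10 itself was not the same in these backgrounds. SOX10 went from 43.4 to 246 CPM with guide 2, from 83.6 to 291 CPM with guide 1 and from 354 to 452 CPM in control cells. The part of that step in these differences was not tested.

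**Figure D4:**
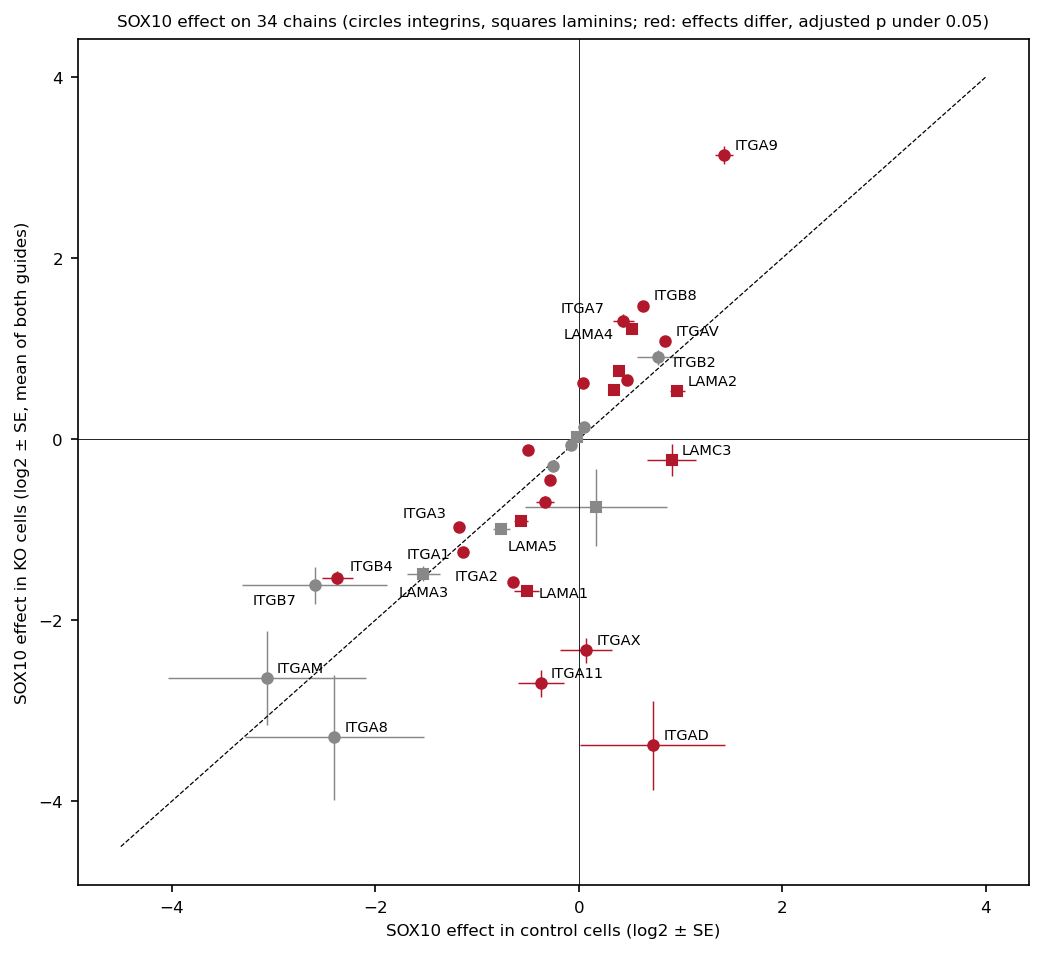
SOX10 effect on 34 tested chains in knockout cells (y, mean of both guides) against that in control cells (x), log2 fold change ± SE, circles for integrins and squares for laminins, with the dashed line marking equal effects and red marking chains whose effects differed at an adjusted p under 0.05. ITGA9 lies above the line at 1.43 in control and 3.14 in knockout cells, and ITGAX, ITGA11 and ITGAD lie below it.

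To set the knockout and SOX10 effects side by side without a shared library, chains were called by guide 1 against control and read for SOX10 in the guide 2 line, and by guide 2 against control and read in the guide 1 line. SOX10 changed 48.6% of all genes in the guide 2 line, 24.6% upward and 24% downward, and 43.7% in the guide 1 line, 22% upward and 21.7% downward. Of the 12 chains lower with guide 1, SOX10 raised 9 and lowered 2 in the guide 2 line, and of the 14 higher with guide 1, it lowered 12 and raised 2. Of the 13 chains lower with guide 2, SOX10 raised 8 and lowered 3 in the guide 1 line, and of the 14 higher with guide 2, it lowered 12 and raised 2. The chains moved the other way were 75% of the lower and 85.7% of the higher ones in the guide 2 line, and 61.5% and 85.7% in the guide 1 line. Over all genes called the same way these shares were 44% and 45.5% in the guide 2 line, and 43.5% and 44.8% in the guide 1 line. ITGA1 and ITGB1 were lower with either guide and lower again with SOX10 in the other line, as was ITGA5 with guide 2, and ITGB3 was not called for SOX10 in either line. LAMB1, lower with either guide, rose with SOX10 in the guide 2 line (467 to 490 CPM). In the guide 1 line its SOX10 change was not called (518 to 508 CPM). ITGB2 and LAMB2 were higher with either guide and rose further with SOX10 in the other line. The LAMB2 call with guide 2 (0.12) did not pass without control replicate 2 (0.11) or 3 (0.097) or guide 2 replicate 1 (0.067) or 3 (0.13).

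Knockout cells with SOX10 differed from control cells in 27 of the 35 chains, 10 higher and 17 lower, with 57.9% of all genes called, 30% higher and 27.9% lower. With library totals in place of scaling factors the split was 14 higher and 15 lower, while 73.5% of all called genes were higher and the median over all genes was 0.161. Those not called were ITGA4, ITGB4, ITGAE, ITGAX, ITGAD, LAMA3, LAMB4 and LAMC3, for LAMA3 with a difference of 0.26 ± 0.12 (SE; adjusted p = 0.0506) and for ITGB4 of 0.10 ± 0.10 (SE; adjusted p = 0.433). For ITGA4 the guides lay on opposite sides of control, guide 2 with SOX10 below and guide 1 with SOX10 above. At 2-fold or more 8 chains differed, where 12.6% of all genes did: ITGB2, ITGB7 and LAMB3 were higher, at 3.87, 1.60 and 1.07, and ITGB3, ITGA1 and ITGA11 were lower, at -1.97, -1.60 and -1.02, on the log2 scale, together with ITGA8 and ITGAM, whose fitted values rest on few counts. ITGAM (-1.73) did not pass without control replicate 3 (-1.46), guide 1 with SOX10 replicate 2 (-1.47) or 3 (-1.47), or guide 2 with SOX10 replicate 2 (-1.58), and was -3.28 without guide 1 with SOX10 replicate 1. Without control replicate 3 the ITGB7 value was 2.44. The other 7 chains called higher were ITGAV (0.95), LAMA1 (0.88), ITGA7 (0.75), LAMB2 (0.69), LAMA2 (0.63), LAMA5 (0.49) and LAMC1 (0.13). SOX10 and TADA2B states differ together in this comparison.

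Genes that work with these chains were counted in 5 lists, read against the 28.6% of all genes called higher and 29.5% called lower with knockout. Among 24 adaptors and activators of integrins, 10 rose and 9 fell with knockout. FERMT1, an epithelial kindlin, rose by 0.71, VCL, which encodes vinculin, by 0.56, and TNS1, a tensin, by 2.58. TNS3, another tensin, averaged 48.9 and 58.00 CPM in guide 2 and guide 1 knockout cells, against 107 CPM in control cells (log2 difference -0.9997, adjusted p = 3.52e-29), and the actin crosslinker ACTN1 fell by 0.76. PXN, paxillin, had a log2 difference of -0.46. With SOX10 in knockout cells 8 of the 24 rose and 10 fell, where 28.1% of all genes were called in each direction. FERMT1 and TNS1 were among those lower (-0.78 and -1.51) and TNS3 among those higher (0.64).

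Of 21 basement membrane genes and laminin binding partners, 19 were tested, and 8 rose and 9 fell with knockout. BCAM, a receptor of LAMA5, averaged 24.2 and 18.9 CPM in guide 2 and guide 1 knockout cells, against 8.78 CPM in control cells (log2 difference 1.28, adjusted p = 2.02e-21). NTN4, a netrin that binds laminin, rose by 0.83 and COL4A6, a collagen IV chain, by 2.10. DAG1, which encodes the laminin receptor dystroglycan, fell to 187 and 229 CPM in guide 2 and guide 1 knockout cells, against 353 CPM in control cells (log2 difference -0.77, adjusted p = 3.13e-26), with NID1, the laminin linker nidogen, at -0.46 and COL18A1 at -1.41.

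Of 18 other integrin ligands, 15 were tested, and 8 rose and 6 fell with knockout. TNC, tenascin, a ligand of ITGA9, averaged 319.6 and 432 CPM in guide 2 and guide 1 knockout cells, against 1143 CPM in control cells (log2 difference -1.62, adjusted p = 2.98e-40), and with SOX10 it averaged 675 and 1052 CPM in guide 2 and guide 1 knockout cells and 2081 CPM in control cells. ITGA9 and TNC were thus both lower with knockout and both higher with SOX10 in knockout and in control cells. FN1, fibronectin, had a log2 difference of -0.86 and EDIL3, a ligand of ITGAV, of -1.10. TGFBI, a collagen-binding ligand, rose by 1.48, SPP1, osteopontin, by 1.52, and POSTN, periostin, to 2.95 and 2.77 CPM in guide 2 and guide 1 knockout cells, against 0.165 CPM in control cells.

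Among 13 tetraspanins and other membrane partners, 3 rose and 7 fell with knockout. The tetraspanin CD82 averaged 12.6 and 11.8 CPM in guide 2 and guide 1 knockout cells, against 3.53 CPM in control cells (log2 difference 1.79, adjusted p = 2.96e-22), and CAV1, caveolin, rose by 0.28. The tetraspanin CD63 had a log2 difference of -0.70, BSG, basigin, of -0.49 and the integrin-associated CD47 of -0.18. Of 6 hemidesmosome partners of ITGA6 and ITGB4, 2 rose and 3 fell. COL17A1, the hemidesmosomal collagen, averaged 6.22 and 5.31 CPM in guide 2 and guide 1 knockout cells, against 0.401 CPM in control cells (log2 difference 3.84, adjusted p = 1.16e-24), and KRT14, a basal keratin, averaged 0.368 and 1.18 CPM in guide 2 and guide 1 knockout cells, against 5.41 CPM in control cells (log2 difference -3.03, adjusted p = 3.61e-24). PLEC, plectin, which ties ITGB4 to keratin, had a log2 difference of -0.36 and CD151, a tetraspanin partner of laminin receptors, of -0.19.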

How the data were processed

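Poly(A) RNA of A375 cells was sequenced from stranded mRNA libraries, per the labels. The authors deposited 1 table of raw counts per gene for all 18 libraries, made with HISAT2 and HTSeq on hg38 per the submitters' processing notes, with versions and strand setting not given in the sources used here. Of 58721 identifiers, 58676 were found in GENCODE 29, which gave positions, biotypes and exon lengths. Genes were filtered by edgeR's filterByExpr, leaving 21060. The counts were scaled by TMM and fitted with 6 group means in edgeR 4.0.16 (R 4.3.3, limma 3.58.1, robust quasi-likelihood, 12 residual degrees of freedom, common biological coefficient of variation 4.02%). Knockout effects are the mean of both guides unless a guide is named. P-values are quasi-likelihood F tests with Benjamini-Hochberg adjustment over all genes tested, called under 0.05. CPM are on TMM-scaled library sizes, and CPM per kb divide them by the exon union length. Of the tested chains 1 enters the counts and is not reported here by name, in text or figures. Chains past the threshold with a change of at least 2-fold in a comparison are given with every library value, their obligate partners may be named, and from each related gene list up to 3 genes a direction with the lowest adjusted p are named. The chains, lists and markers were chosen with earlier results of these data known. The alternatives were DESeq2 1.42.0, its size factors, library totals, other filters (a mean CPM of at least 1, or none), only the groups compared, the replicate number as a block, each library left out, and longest-transcript lengths. Counting error only is covered by the limit of 3 counts. The chi-square compared genes with 20 or more counts in a pair. Promoters come from RefSeq on GRCh38.p14.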

Additional observations from a re-analysis of the deposited data

Results flagged for a closer look

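The effect of SOX10 overexpression differed between knockout and control cells, by edgeR's quasi-likelihood test of the difference itself with Benjamini-Hochberg adjustment, for 24 chains, 23 of which are given here. Over all genes tested 33.3% were called in that test, 18.1% with a positive and 15.1% with a negative difference. Values are the log2 change with SOX10 in knockout cells minus that in control cells. Among laminin chains the difference was 0.69 for LAMA4, 0.36 for LAMC1 and 0.20 for LAMB2. It was -1.16 for LAMA1, -1.14 for LAMC3, -0.44 for LAMA2 and -0.33 for LAMB3. Among integrin alpha chains it was 1.71 for ITGA9, 0.87 for ITGA7, 0.58 for ITGA6, 0.24 for ITGAV, 0.21 for ITGA3 and 0.18 for ITGA4. It was -4.11 for ITGAD, -2.40 for ITGAX, -2.32 for ITGA11, -0.93 for ITGA2, -0.36 for ITGA10, -0.17 for ITGA5 and -0.11 for ITGA1. For the beta chains ITGB8, ITGB4 and ITGB3 the differences were 0.84, 0.84 and 0.38. The LAMB2 difference did not pass without control replicate 1 (0.16) or control with SOX10 replicate 3 (0.17). ITGAD rests on few counts, and its difference was -3.002 without replicate 1 of the control with SOX10 and -4.77 without replicate 3 of guide 2 with SOX10. SOX10 itself stood at 246 and 291 CPM in guide 2 and guide 1 knockout cells with SOX10, against 43.4 and 83.6 CPM without it, and at 452 CPM in control cells with SOX10, against 354 CPM without it, so the step in SOX10 was not the same in the backgrounds compared.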

How the results depend on the processing

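Over the alternatives, the number of chains called ranged from 26 to 28 for knockout, 25 to 29 for guide 2, 24 to 28 for guide 1, 11 to 15 between guides, 28 to 33 and 24 to 28 for SOX10 in knockout and control cells, 22 to 25 for the difference between these, and 25 to 29 for knockout with SOX10 against control. Single chains were recomputed only where the main fit called them, so chains that newly passed are not counted here. Of 3298 such values, 3225 kept their direction and still passed, 69 no longer passed and 4 changed sign. Those 4 arose with library totals alone, without scaling factors: ITGAV (0.020) and ITGA5 (0.037) for knockout, ITGAV (0.068) for guide 1, and ITGB5 (0.0034) for knockout with SOX10. There the median of all genes was 0.146, 0.142 and 0.161. By longest-transcript length, in the order guide 2 knockout with SOX10, guide 2 knockout, guide 1 knockout with SOX10, guide 1 knockout, control with SOX10 and control, the LAMA4 share was 77.2, 44.8, 83.2, 52.8, 94.4 and 91.1%, the LAMA5 share 14.6, 36.2, 10.4, 32.8, 2.49 and 5.86%, and the ITGB8 share 26.8, 8.48, 32.8, 14.6, 49.7 and 33.5%. Same-numbered libraries of different groups did not deviate together (r -0.030 to 0.071 over 45 pairs, against -0.11 to 0.078 over 90 pairs of other numbers), so the numbers do not pair them. With the replicate number as a block, 28, 25, 27 and 15 chains were called for knockout, guide 1, guide 2 and guide 2 against guide 1. Of the 206 values called in the main fit, 1 no longer passed, ITGAV with guide 1 (-0.080, adjusted p = 0.0535). ITGAM for SOX10 in knockout cells was -2.64, and -4.19 without guide 1 with SOX10 replicate 1, ITGA8 there was -3.29, and -2.66 without guide 2 replicate 3. For SOX10 in control cells, ITGA8 (-2.40) did not pass in DESeq2 (adjusted p = 0.0708) or without control replicate 2 (-2.07) or control with SOX10 replicate 1 (-2.23), 2 (-2.75) or 3 (-2.28), nor ITGAM (-3.07) without control with SOX10 replicate 1 (-2.55). These fitted values rest on few counts. Depth limits ITGA8, ITGAD, ITGAM, ITGB7 and LAMB4, which had at most 96 counts in any library.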
